A study of Danio rerio with 2 samples.

Results

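The genes of the citrate cycle and of fatty acid oxidation were followed along the sections of 2 regenerating zebrafish hearts. A list of 35 zebrafish symbols was matched to the Ensembl gene IDs of both count tables, and a member counted as measured in a heart when it held at least 50 counts there. Of the 35 members, 30 were measured in at least 1 heart (26 at 7 dpi, 30 at 3 dpi), among 5989 genes measured in either heart. They were 14 of 17 citrate cycle genes, 14 of 16 genes of fat oxidation (11 of them at 7 dpi) and 2 genes of pyruvate dehydrogenase (1 of them at 7 dpi). The genes cs, mdh1aa, mdh1ab, hadhb and etfa were not analysed here. One heart was collected at 7 days post injury (7 dpi) and one at 3 days post injury (3 dpi). Both were adult hearts with a cryoinjury, a freeze lesion of the ventricle, and both titles read WT, taken as wild type. Each heart was cut into 12 µm sections numbered from the injury toward the uninjured muscle, and every section gave 1 CEL-seq library, in which reads come from the 3′ end of messenger RNA. No uninjured heart was analysed here, so no level before injury is given.

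The citrate cycle burns acetyl groups in the mitochondrial matrix and hands electrons to the respiratory chain, and succinate dehydrogenase belongs to both. Fatty acids reach it as acetyl-CoA, after a binding protein has carried them through the cytosol, the carnitine shuttle has brought them into the matrix, and beta-oxidation has shortened them step by step. Working heart muscle draws much of its ATP from fat and is rich in these enzymes, while pyruvate dehydrogenase admits carbon from glucose.

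The files hold 38 sections of the 7 dpi heart and 40 of the 3 dpi heart, of which 24 and 35 had enough counts to be kept. Their totals ran from 20832 to 813848 counts at 7 dpi (median 66331) and from 39495 to 302404 at 3 dpi (median 98915), and section 34 alone held 25.5% of the 7 dpi counts. The sections were divided by the other genes into an injury-side, a middle and a remote-side domain, namely sections 1 to 10, 11 to 17 and 18 to 34 at 7 dpi and sections 1 to 10, 11 to 20 and 21 to 40 at 3 dpi. Levels are counts per 1000000 gene counts of a domain or section (CPM). With 1 heart a day and sections that share an animal there are no replicates of a day, so no test was made. Ranges in brackets are exact 95% Poisson intervals, which cover counting error only, and differences between the days cannot be told apart from differences between these 2 hearts.

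Contractile markers were highest in the remote-side domain of both hearts, though unevenly across it at 7 dpi. The contractile markers (10 IDs with a row at 7 dpi, 11 at 3 dpi) summed to 136 to 362 CPM in injury-side, 48.0 to 1260 CPM in middle and 1452 to 41993 CPM in remote-side sections of the 7 dpi heart. On that remote side they summed to 1452 to 12405 CPM in kept sections 18 to 26 and to 21522 to 41993 CPM in sections 30 to 34. At 3 dpi they summed to 2402 to 19607 CPM in injury-side, 26775 to 50960 CPM in middle and 47522 to 74794 CPM in remote-side sections. The gene myl7 (ENSDARG00000019096), a cardiac myosin light chain used here as the measure of heart muscle, had 10.3 CPM on the injury side (5 counts) against 2857 CPM on the remote side at 7 dpi. At 3 dpi it had 1938 CPM on the injury side against 13787 CPM on the remote side. So the kept injury-side sections of the 7 dpi heart were nearly free of contractile marker RNA, and those of the 3 dpi heart were not. Sections 2 to 6 of the 3 dpi heart were left out for low totals. Its injury side is therefore section 1, with 2402 CPM of contractile markers, and sections 7 to 10, with 12157 to 19607 CPM. Every injury-side value at 3 dpi rests mostly on those sections next to the middle.

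The 14 citrate cycle genes together were lowest on the injury side and highest on the remote side in both hearts. Their summed level was 515 CPM on the injury side, 684 CPM in the middle and 1714 CPM on the remote side at 7 dpi. By section it ran at 136, 493 and 637 CPM (lowest, median, highest) on the injury side against 452, 993 and 2822 CPM on the remote side, so the domains overlapped. At 3 dpi the summed level was 2252 CPM on the injury side, 3913 CPM in the middle and 5730 CPM on the remote side. The injury-side sections of that heart, at 1576, 2356 and 2651 CPM (lowest, median, highest), all lay below the remote-side ones, at 3621, 5624 and 6858 CPM. The fat oxidation genes were summed without fabp3, which held 24188 of their 26870 counts at 7 dpi and 8212 of 17486 at 3 dpi. Without it they showed the same order at 3 dpi, with 884 CPM on the injury side, 1702 CPM in the middle and 2752 CPM on the remote side. At 7 dpi they were flatter, with 424 CPM on the injury side, 495 CPM in the middle and 952 CPM on the remote side. By section this sum ran at 237, 464 and 497 CPM (lowest, median, highest) on the injury side against 415, 544 and 1705 CPM on the remote side. These domains overlapped, and section 34 held 1305 of the 2364 remote-side counts.

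**Figure D1:**
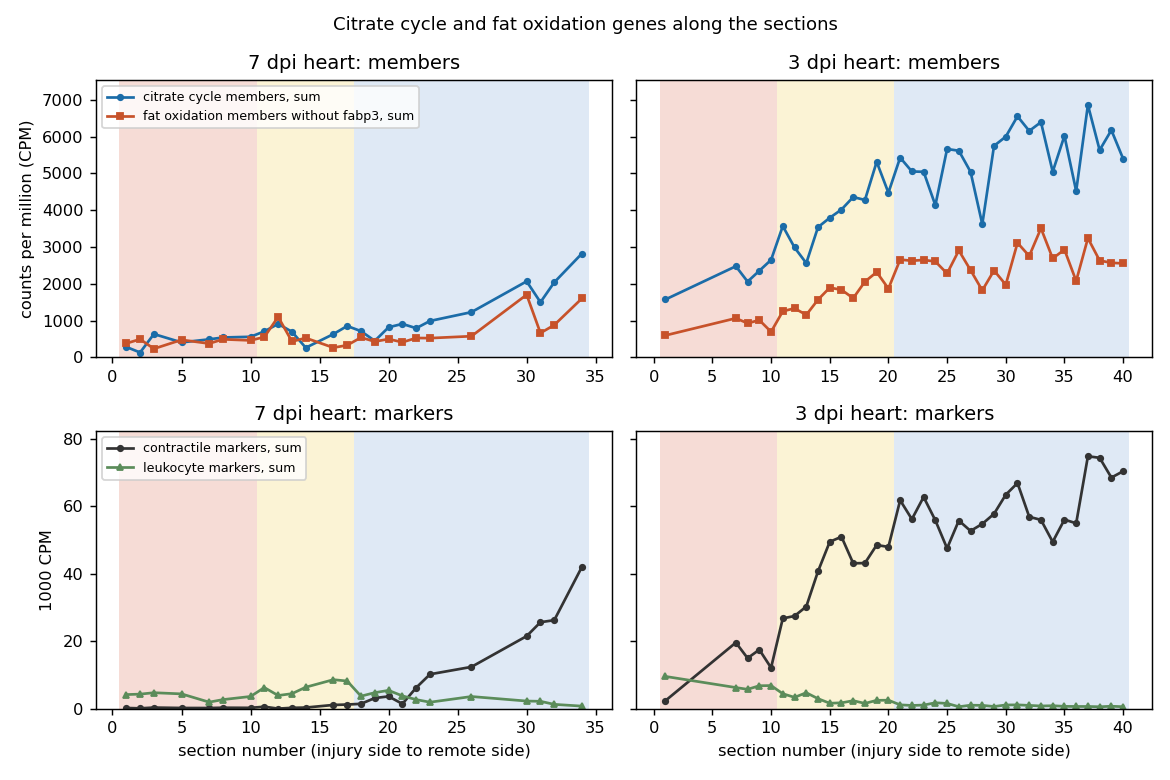
Summed levels in CPM (vertical axes) by section number (horizontal axes) in the 7 dpi heart (left) and the 3 dpi heart (right): citrate cycle members and fat oxidation members without fabp3 above, contractile and leukocyte markers below (in 1000 CPM), with injury-side, middle and remote-side domains shaded red, yellow and blue. Points are single kept sections. The citrate cycle sum lies between 136 and 2822 CPM at 7 dpi and between 1576 and 6858 CPM at 3 dpi. Its highest 7 dpi values are those of sections 30 to 34.

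Across the kept sections the citrate cycle sum ranked with the contractile markers, with a Spearman rho of 0.77 over 24 sections at 7 dpi and 0.85 over 35 sections at 3 dpi. Fat oxidation without fabp3 had a rho of 0.50 at 7 dpi and 0.82 at 3 dpi. Neighbouring sections share tissue, animal and total, so these values describe the profiles only. Leukocyte markers (14 IDs with a row at 7 dpi, 16 at 3 dpi) ran against the citrate cycle sum, with a rho of -0.52 at 7 dpi and -0.79 at 3 dpi. They summed to 1972 to 4760 CPM in injury-side against 791 to 5452 CPM in remote-side sections at 7 dpi, and to 5764 to 9583 CPM in injury-side against 595 to 1786 CPM in remote-side sections at 3 dpi. A 2-fold or greater excess on the injury side was seen for 5 of 12 measured leukocyte markers at 7 dpi, against 9.09% of all genes, and for 11 of 11 at 3 dpi, against 34% of all genes. None of the measured leukocyte markers was at 0 on the injury side. Endothelial markers ran the same way as the members at 7 dpi, where 4 of 4 were 2-fold or more lower on the injury side (23.2% of all genes) with a median log2 difference of -3.23 and vwf at 0. They summed there to 0 to 228 CPM in injury-side against 211 to 1600 CPM in remote-side sections, while at 3 dpi their sum was 159 CPM on each of these sides and their median log2 difference -0.07. Matrix markers, such as collagens and fibronectin, summed to 5606 to 26163 CPM in injury-side against 6128 to 15283 CPM in remote-side sections at 7 dpi (median log2 difference -0.11, 1 of 8 at least 2-fold lower, postnb at 0). At 3 dpi they summed to 3904 to 9182 CPM in injury-side against 553 to 4328 CPM in remote-side sections, with 6 of 7 at least 2-fold higher and a median of 1.88. The part of leukocytes, endothelium and matrix cells in the results was not tested. In whole sections, fewer muscle cells and less RNA per muscle cell cannot be told apart.

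Gene by gene, all 14 citrate cycle members of the 7 dpi heart had an injury-side level below the remote-side one. The deficit was 2-fold or more for 10 of the 14, against 23.2% of the 4729 genes measured there, and none had a 2-fold excess, against 9.09% of genes. The median log2 difference, injury side minus remote side, was -1.56, beside -0.13 over all genes. With section 34 left out, 7 of the 14 were 2-fold or more lower, against 1134 of the 4729 genes. The median was then -1.13, beside -0.21 over all genes. At 3 dpi 7 of the 14 had a deficit of 2-fold or more, against 15.7% of 4858 genes, and none had a 2-fold excess, against 34% of genes. The median log2 difference there was -1.01, beside 0.54 over all genes. The 3 dpi count depends on how sections were grouped and scaled, and the share of all genes moved with it. It was 2 of 14 with 3 domains of equal section number (5.76% of all genes) or with a stricter section minimum (11.3%). It was 11 of 14 with median-of-ratios scaling (30.4%). That scaling moved the median log2 difference of all genes at 3 dpi by -0.85, and levels at 3 dpi are best read against it.

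Among the dehydrogenases of the cycle, idh2 (ENSDARG00000003795), the NADP-dependent isocitrate dehydrogenase of mitochondria, gave the largest differences in both hearts. At 7 dpi it had 39.3 CPM on the injury side, 83.3 CPM in the middle and 353 CPM on the remote side. By section, idh2 ran at 0, 23.9 and 69.2 CPM (lowest, median, highest) on the injury side against 37.7, 132 and 693 CPM on the remote side, with the highest value in section 34. It was 9.0-fold lower on the injury side (5.73 to 15), a log2 difference of -3.14, which was -2.23 with section 34 left out. At 3 dpi idh2 had 268 CPM on the injury side, 650 CPM in the middle and 1371 CPM on the remote side, 5.11-fold lower on the injury side (4.04 to 6.56). Here its injury-side sections, at 75.1, 259 and 419 CPM (lowest, median, highest), did not overlap the remote-side ones, at 760, 1308 and 2178 CPM. The malate dehydrogenase gene mdh2 (ENSDARG00000043371), whose enzyme closes the cycle, had the next largest log2 difference in both hearts. At 7 dpi mdh2 had 97.1 CPM on the injury side, 140 CPM in the middle and 437 CPM on the remote side, 4.50-fold lower on the injury side (3.36 to 6.16). Without section 34 its log2 difference was -1.27, against -2.16 with it. At 3 dpi mdh2 had 423 CPM on the injury side, 992 CPM in the middle and 1582 CPM on the remote side, 3.74-fold lower on the injury side (3.10 to 4.55).

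The NAD-dependent isocitrate dehydrogenase is built of the catalytic subunit Idh3a and the subunits Idh3b and Idh3g, and at 3 dpi the 3 genes did not move alike. There idh3b had 102 CPM on the injury side against 327 CPM on the remote side and was 3.21-fold lower on the injury side (2.19 to 4.90). In contrast, idh3a had 125 CPM on the injury side against 136 CPM on the remote side (1.09-fold lower, 0.76 to 1.60). The level of idh3g at 3 dpi was 45.3 CPM on the injury side (12 counts), 28.2 CPM in the middle and 34.5 CPM on the remote side (1.31-fold higher on the injury side, 0.65 to 2.40). The fold of idh3b was 2.95 times that of idh3a (1.69 to 5.18) and 4.21 times that of idh3g (1.87 to 8.92), and that of idh2 was 4.70 times that of idh3a (2.97 to 7.31). These are 3 of 15 pairs of members compared within each heart, with no correction of the intervals for their number. At 7 dpi idh3a had 33.1 CPM on the injury side against 95.9 CPM on the remote side (2.90-fold lower, 1.75 to 5.16), and idh3b had 47.5 CPM on the injury side against 89.8 CPM on the remote side (1.89-fold lower, 1.23 to 3.04). The 7 dpi level of idh3g was 53.7 CPM on the injury side, 43.9 CPM in the middle and 62.0 CPM on the remote side (1.16-fold lower, 0.76 to 1.82), and it was the flattest citrate cycle gene of that heart. The folds of idh3b and of each of the other subunit genes differed by less than the counting error at 7 dpi.

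The oxoglutarate dehydrogenase complex, which makes succinyl-CoA, and succinate-CoA ligase, which uses it, gave differences of unlike size. The gene dlst, for the transferase core of the complex, had 51.7 CPM on the injury side against 112 CPM on the remote side at 7 dpi (2.17-fold lower, 1.44 to 3.41), a log2 difference of -1.10, which was -0.82 with section 34 left out. At 3 dpi dlst had 189 CPM on the injury side against 407 CPM on the remote side (2.16-fold lower, 1.62 to 2.92), much the same fold. Its partner ogdha, for the dehydrogenase subunit, was 3.99-fold lower on the injury side at 7 dpi (2.05 to 8.85) and 2.41-fold lower at 3 dpi (1.51 to 4.11). For the ligase, suclg1, the shared alpha subunit, had 24.8 CPM on the injury side against 71.7 CPM on the remote side at 7 dpi (2.89-fold lower, 1.62 to 5.70), a log2 difference of -1.49, or -0.92 without section 34. At 3 dpi suclg1 had 227 CPM on the injury side, 170.4 CPM in the middle and 215 CPM on the remote side (1.06-fold higher on the injury side, 0.80 to 1.38). Its 3 dpi sections ran at 125, 220 and 299 CPM (lowest, median, highest) on the injury side against 127, 213 and 346 CPM on the remote side, so the domains overlapped almost fully. The ATP-specific beta subunit gene sucla2 was 1.85-fold lower on the injury side at 3 dpi (1.12 to 3.28), 1.95 times the fold of suclg1 (1.09 to 3.70). At 7 dpi sucla2 had 3 injury-side counts and was 4.55-fold lower (1.49 to 22.6).

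Succinate dehydrogenase has 4 subunits, of which Sdha carries the flavin, Sdhb the iron-sulphur clusters, and Sdhc and Sdhd anchor the enzyme in the inner membrane. All 4 genes had their lower level on the injury side, in both hearts. At 7 dpi sdha had 26.9 CPM on the injury side against 88.6 CPM on the remote side (3.30-fold lower, 1.89 to 6.29), and at 3 dpi it had 140 CPM on the injury side against 338 CPM on the remote side (2.42-fold lower, 1.74 to 3.46). For sdhb the levels were 16.5 CPM on the injury side against 52.4 CPM on the remote side at 7 dpi (3.17-fold lower, 1.56 to 7.49), and 147 CPM on the injury side against 281 CPM on the remote side at 3 dpi (1.91-fold lower, 1.38 to 2.70). Without section 34 the 7 dpi log2 difference of sdhb was -0.90, against -1.61 with it. The anchor gene sdhc had 49.6 CPM on the injury side against 160 CPM on the remote side at 7 dpi (3.22-fold lower, 2.13 to 5.08), and 306 CPM on the injury side against 461 CPM on the remote side at 3 dpi (1.51-fold lower, 1.20 to 1.91). The other anchor gene, an ID named SDHD that was matched to sdhdb (ENSDARG00000030139), had 33.1 CPM on the injury side against 56.0 CPM on the remote side at 7 dpi (1.69-fold lower, 1.01 to 3.05), and 86.9 CPM on the injury side against 147 CPM on the remote side at 3 dpi (1.69-fold lower, 1.11 to 2.69). Section 34 held 76 of its 139 remote-side counts at 7 dpi. Its section medians there were 32.8 CPM on the injury side against 37.7 CPM on the remote side. At 3 dpi the fold of sdha was 1.60 times that of sdhc (1.06 to 2.46), while at 7 dpi the folds of these 2 genes differed by less than the counting error. A second ID of the name SDHD, with 13 and 27 counts, was under the minimum in both hearts. Of the enzymes after succinate, fh, for fumarate hydratase, was 2.05-fold lower on the injury side at 7 dpi (0.99 to 4.90) and 2.43-fold lower at 3 dpi (1.5 to 4.21).

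Fat oxidation genes shared this direction, but in the 7 dpi heart the size rested in part on section 34. All 11 measured members were below their remote-side level at 7 dpi, 7 of the 11 by 2-fold or more (23.2% of all genes), with a median log2 difference of -1.10. With section 34 left out, 4 of the 11 were 2-fold or more below, against 1134 of the 4729 genes. The median was then -0.55, beside -0.21 over all genes, and acadvl and hadh turned to 0.02 and 0.14. At 3 dpi 10 of the 14 members were 2-fold or more below (15.7% of all genes) and 0 above, with a median log2 difference of -1.58. The members just under the count minimum at 7 dpi were cpt2 with 36 counts, etfdh with 44 and decr1 with 45.

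The fatty acid binding protein gene fabp3 (ENSDARG00000023290), the form known from heart muscle in mammals, was the member with the most counts. At 7 dpi it had 3712 CPM on the injury side, 2539 CPM in the middle and 8787 CPM on the remote side, 2.37-fold lower on the injury side (2.26 to 2.49). Its injury-side sections, at 3124, 3827 and 4921 CPM (lowest, median, highest), lay within the range of the remote-side ones, at 1991, 4776 and 16092 CPM, and without section 34 the log2 difference was -0.49 against -1.24 with it. At 3 dpi fabp3 had 665 CPM on the injury side, 1514 CPM in the middle and 2446 CPM on the remote side, 3.68-fold lower on the injury side (3.17 to 4.30). Those injury-side sections, at 439, 698 and 886 CPM, all lay below the remote-side ones, at 1830, 2464 and 3201 CPM.

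The carnitine shuttle genes were among the least counted. The outer-membrane transferase gene cpt1b had 12.4 CPM on the injury side (6 counts) against 22.6 CPM on the remote side at 7 dpi (1.82-fold lower, 0.79 to 5.17), and 11.3 CPM on the injury side (3 counts) against 36 CPM on the remote side at 3 dpi (3.18-fold lower, 1.06 to 15.7). Its 7 dpi log2 difference was -0.81, and -0.08 without section 34. The translocase gene slc25a20 had 4.13 CPM on the injury side (2 counts) against 23.8 CPM on the remote side at 7 dpi (5.75-fold lower, 1.52 to 48.6). At 3 dpi slc25a20 had 71.8 CPM on the injury side against 60.9 CPM on the remote side (1.18-fold higher there, 0.69 to 1.90), so it was the fat oxidation member of opposite sign in that heart. Counts of the inner-membrane transferase gene cpt2 on the injury side were 0 in both hearts, against 31 on the remote side at 7 dpi and 102 at 3 dpi. With its injury-side sum taken as 3 counts, the floor for an observed 0, cpt2 was lower there by at least 2.01-fold at 7 dpi and at least 3.34-fold at 3 dpi. The exact 95% intervals used for the other genes reached lower for cpt2, to 1.54-fold at 7 dpi and 2.67-fold at 3 dpi.

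In the first step of beta-oxidation, acyl-CoA dehydrogenases of different chain length differed from one another at 3 dpi. The very-long-chain gene acadvl (ENSDARG00000016687) had 98.2 CPM on the injury side, 387 CPM in the middle and 723 CPM on the remote side of that heart, 7.36-fold lower on the injury side (5.01 to 11.3). No member measured by more than 0 counts on both sides had a larger fold at 3 dpi, and its injury-side sections, at 64.8 to 139 CPM, did not overlap the remote-side ones, at 438 to 940 CPM. The medium-chain gene acadm had 125 CPM on the injury side against 375 CPM on the remote side (3.01-fold lower, 2.13 to 4.39). The long-chain gene acadl had 136 CPM on the injury side against 163 CPM on the remote side at 3 dpi (1.20-fold lower, 0.85 to 1.73). The fold of acadvl was 6.15 times that of acadl (3.57 to 10.7) and 2.45 times that of acadm (1.41 to 4.28). At 7 dpi the order differed: acadl was 2.84-fold lower on the injury side (1.84 to 4.59), acadm 2.16-fold lower (1.52 to 3.16) and acadvl 1.85-fold lower (1.31 to 2.68). The intervals of those 7 dpi folds overlapped, and the acadvl to acadl pair spanned equal folds there. With section 34 left out the 7 dpi log2 differences were -0.64 for acadl, against -1.48 with it, -0.55 for acadm, against -1.10, and 0.02 for acadvl, against -0.88.

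The later steps are hydration, oxidation and thiolysis. At 3 dpi hadha, the alpha subunit of the trifunctional protein, was 2.95-fold lower on the injury side (1.77 to 5.31). The hydroxyacyl-CoA dehydrogenase gene hadh was 2.83-fold lower (1.85 to 4.55) and the enoyl-CoA hydratase gene echs1 1.82-fold lower (1.12 to 3.17). The thiolase gene acat1, which also serves ketone body use, had 71.8 CPM on the injury side against 312 CPM on the remote side at 3 dpi (4.35-fold lower, 2.77 to 7.26). At 7 dpi acat1 had 37.2 CPM on the injury side, 4.39 CPM in the middle and 147 CPM on the remote side, 3.95-fold lower on the injury side (2.47 to 6.74). Its log2 difference of -1.95 there was -1.20 with section 34 left out. The folds of hadha, hadh and echs1 at 7 dpi were 2.17 (1.34 to 3.73), 1.54 (0.94 to 2.67) and 2.89 (1.71 to 5.24), lower on the injury side in each case, and without section 34 the log2 difference of hadh was 0.14, against -0.61 with it. Electrons leave the dehydrogenases through the flavoprotein genes etfb and etfdh. Of these, etfb had 74.4 CPM on the injury side against 114 CPM on the remote side at 7 dpi (1.53-fold lower, 1.08 to 2.23), and 110 CPM on the injury side against 421 CPM on the remote side at 3 dpi (3.84-fold lower, 2.66 to 5.77). At 3 dpi etfdh was 3.28-fold lower on the injury side (1.38 to 10.2), and decr1, a reductase for unsaturated fatty acids, was 1.13-fold lower (0.59 to 2.42).

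Pyruvate dehydrogenase showed a like pattern. The gene pdhb, for the beta subunit of its first enzyme, had 18.6 CPM on the injury side against 61.2 CPM on the remote side at 7 dpi (3.29-fold lower, 1.69 to 7.34), and 170.0 CPM on the injury side against 384 CPM on the remote side at 3 dpi (2.26-fold lower, 1.68 to 3.12). The transferase core gene dlat had 1 injury-side count and 56 remote-side counts at 3 dpi (5.50-fold lower, 0.95 to 221), and at 7 dpi it held 17 counts in all and was not measured.

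**Figure D2:**
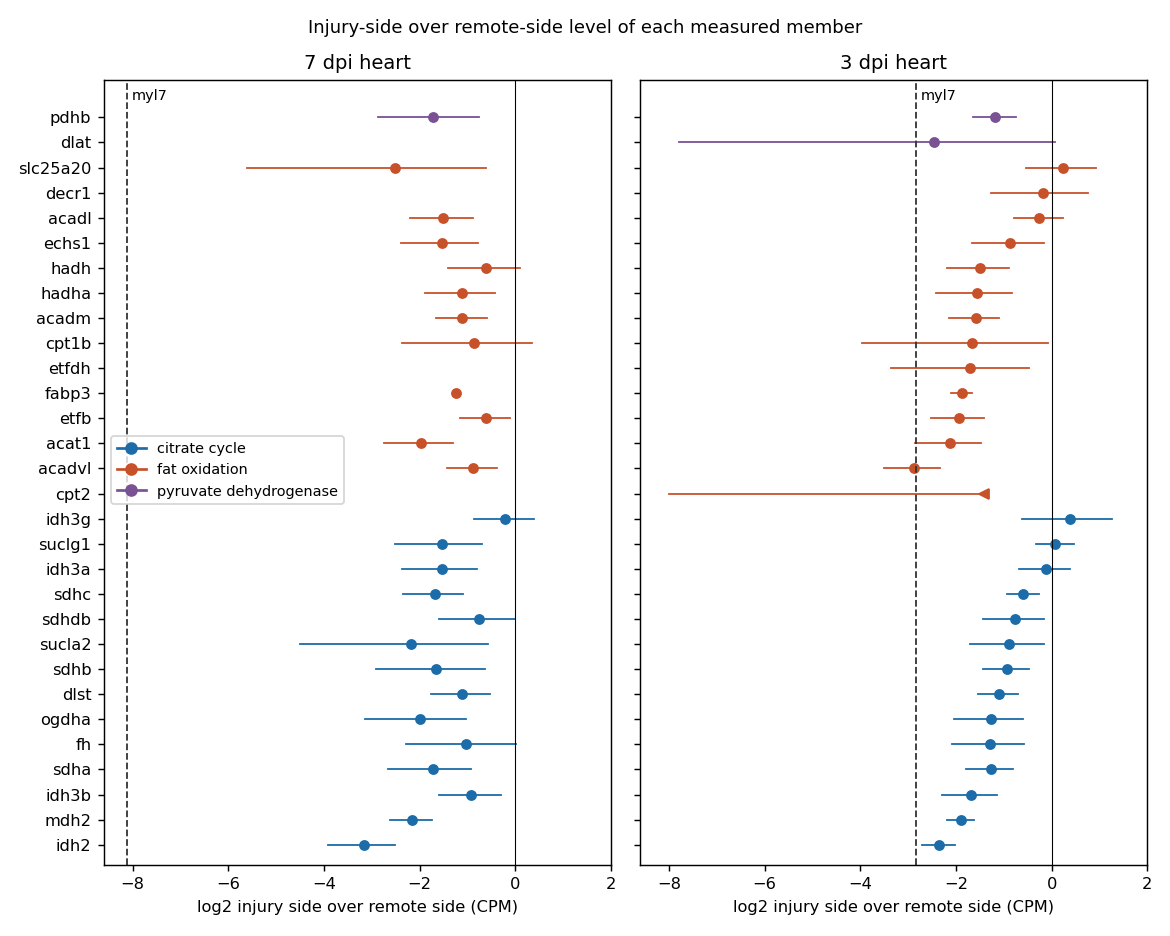
Log2 ratio of the injury-side to the remote-side level in CPM (horizontal axes) for each measured member (rows) at 7 dpi (left) and 3 dpi (right), ordered by class and by the 3 dpi value. Points are ratios and bars their exact 95% counting intervals, the arrowhead for cpt2 (0 injury-side counts) is the upper bound of its interval, and the dashed line is myl7: most members lie between the line of no difference and myl7, and at 3 dpi acadvl lies at the myl7 line.

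The middle domain set the hearts apart for the citrate cycle and less so for fat oxidation. At 7 dpi 10 of 14 citrate cycle genes were 2-fold or more lower in the middle than in remote sections, against 26.5% of all genes. Their median log2 difference was -1.31, beside -0.11 over all genes. In the 3 dpi heart 1 of 14 was 2-fold or more lower, against 2.88% of genes. The median there was -0.34, beside 0.34 over all genes. Fat oxidation members gave 4 of 11 at 7 dpi (median -0.74) and 1 of 14 at 3 dpi (median -0.66), against the same shares of all genes. The middle of the 7 dpi heart held 640 CPM of contractile markers in all and that of the 3 dpi heart 40971 CPM, so the middle domains are unlike tissues.

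Set against myl7 in the same sections, the members moved the other way. Per 100 myl7 counts the citrate cycle genes summed to 4980 counts on the injury side (2106 to 15472) against 60.0 on the remote side (57.7 to 62.3) at 7 dpi. At 3 dpi they summed to 116 counts per 100 of myl7 on the injury side (103 to 131), 60.9 in the middle (58.5 to 63.5) and 41.6 on the remote side (40.8 to 42.3). The median log2 change of the ratio, injury side minus remote side, was 6.42 for the citrate cycle and 6.88 for fat oxidation at 7 dpi, where all 25 members of these classes were 2-fold or more higher, against 99.6% of genes, and none lower, against 0.0423%. With 5 myl7 counts on that injury side, the 7 dpi ratios show little beyond the near absence of myl7. At 3 dpi the median log2 change was 1.82 for the citrate cycle (12 of 14 members 2-fold or more higher) and 1.25 for fat oxidation (9 of 14), against 93.2% of genes and a median of 3.37 over all genes. The change of both classes against myl7 was thus smaller than that of the median gene.

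Members differed widely in their ratio to myl7 along the 3 dpi heart, and acadvl was the one whose ratio to myl7 changed least. The contractile markers summed to 728 counts per 100 of myl7 on the injury side against 449 on the remote side. The changes below are against myl7 alone and depend on that choice of muscle gene. The ratio of acadvl was 5.07 counts per 100 of myl7 on the injury side, 6.02 in the middle, against 5.24 on the remote side, a change of 0.97-fold (0.62 to 1.44). For idh2 the ratio was 13.8 on the injury side, 10.1 in the middle, against 9.94 on the remote side (1.39-fold, 1.07 to 1.79), the smallest change among citrate cycle genes. The ratio of fabp3 was 34.3 on the injury side, 23.6 in the middle, against 17.7 on the remote side (1.93-fold, 1.62 to 2.30), and that of mdh2 was 1.90-fold higher on the injury side (1.53 to 2.34). No member with an injury-side count was 2-fold or more lower on this scale at 3 dpi, against 1.77% of genes, and for cpt2, with 0 counts there, the interval of 0 to 2.68-fold shows no direction. At the other end, idh3g had 2.34 counts per 100 of myl7 on the injury side, 0.44 in the middle, against 0.25 on the remote side (9.34-fold, 4.63 to 17.2), and slc25a20 changed by 8.39-fold (4.88 to 13.7). Among the others, suclg1 changed by 7.51-fold (5.58 to 9.97), idh3a by 6.54-fold (4.39 to 9.47) and acadl by 5.95-fold (4.07 to 8.47).

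To set the hearts side by side, sections with at least 30000 CPM of contractile markers were taken as muscle-rich. Only section 34 of the 7 dpi heart reached this (41993 CPM), against sections 13 to 40 of the 3 dpi heart (30278 to 74794 CPM), so the 7 dpi values of this comparison are those of 1 library. With a minimum of 20000 CPM, chosen after seeing the data, sections 30, 31, 32 and 34 entered at 7 dpi. The level of myl7 itself was 5198 CPM at 7 dpi against 12428 CPM at 3 dpi (0.42-fold, 0.41 to 0.43), so the ratio to myl7 and the level tell different things. In CPM, 7 of 14 citrate cycle genes were at least 2-fold lower at 7 dpi, against 18.6% of 3598 genes, and 1 was at least 2-fold higher, against 19.4%. Their median log2 difference, 7 dpi minus 3 dpi, was -1.04, and that of the 11 fat oxidation members was -0.45, beside -0.06 over all genes. As a ratio to myl7 the medians were 0.22 for the citrate cycle and 0.80 for fat oxidation, beside 1.20 over all genes. On that scale 1 of 14 citrate cycle and 5 of 11 fat oxidation members were 2-fold or more higher at 7 dpi, against 57.2% of genes. None of them was 2-fold or more lower, while the 1 pyruvate dehydrogenase member was, against 2.45%. Against the sum of contractile markers in place of myl7 they were -0.56 and 0.021, so the sign of the citrate cycle median depends on the muscle gene it is set against.

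Single members differed in direction on these scales. The isocitrate dehydrogenase gene idh3g had 71.3 CPM in the muscle-rich section at 7 dpi (58 counts) against 31.8 CPM at 3 dpi (2.24-fold higher, 1.60 to 3.11), with a ratio to myl7 5.36-fold higher (3.82 to 7.44). The long-chain dehydrogenase gene acadl had 247 CPM at 7 dpi against 154 CPM at 3 dpi (1.60-fold higher, 1.35 to 1.89), and from 20000 CPM its level was 1.13-fold higher (0.96 to 1.32). From 20000 CPM 4 of the 11 fat oxidation members were 2-fold or more higher as a ratio to myl7, against 62.5% of genes. In the other direction, pdhb had 51.6 CPM at 7 dpi against 373 CPM at 3 dpi, a level of 0.14-fold (0.10 to 0.19) and a ratio to myl7 of 0.33-fold (0.24 to 0.45). The fumarate hydratase gene fh had 34.4 CPM at 7 dpi against 149 CPM at 3 dpi, a level of 0.23-fold (0.15 to 0.34) and a ratio to myl7 of 0.55-fold (0.36 to 0.81). In section 34 these 2 genes were the members with a lower ratio to myl7 beyond counting error. From 20000 CPM the ratio was also lower beyond it for acadvl, at 0.83-fold (0.73 to 0.94), and sdhb, at 0.78-fold (0.64 to 0.95). In section 34 acadvl had 5.18 counts per 100 of myl7 at 7 dpi against 5.33 at 3 dpi (0.97-fold, 0.84 to 1.12), while its ratio to the sum of contractile markers was 0.56-fold (0.49 to 0.65). Of the citrate cycle genes, idh2 had 13.3 at 7 dpi against 9.89 at 3 dpi (1.35-fold, 1.23 to 1.48), and its ratio to the contractile sum was 0.78-fold (0.72 to 0.86).

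**Figure D3:**
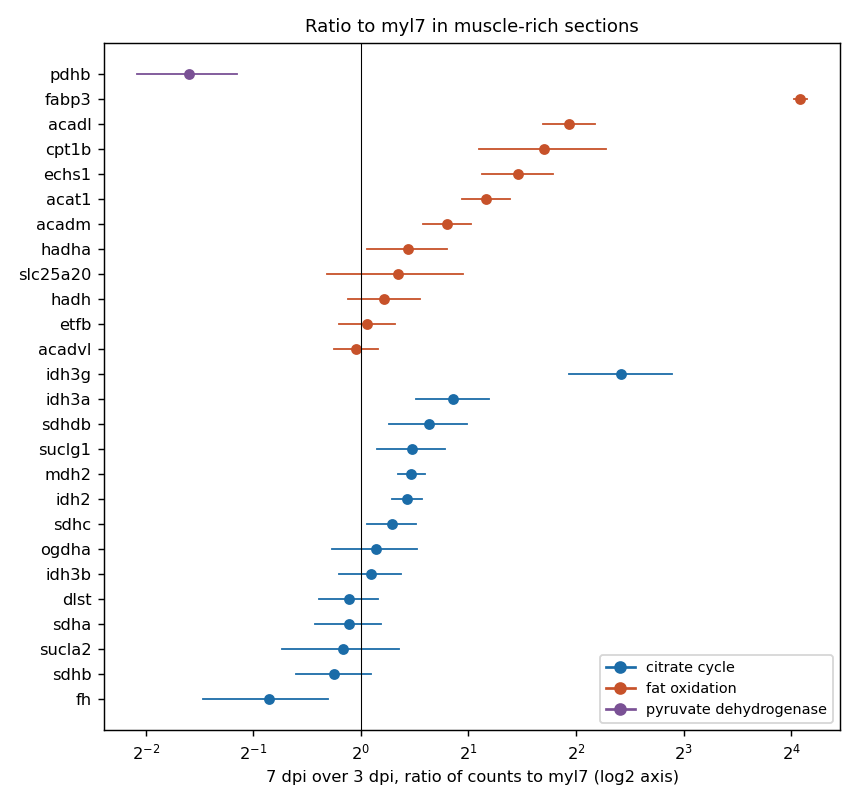
Ratio of each member's counts to myl7 counts in muscle-rich sections, 7 dpi over 3 dpi (horizontal axis, log2 scale), for members measured in both hearts (rows). Points are ratios and bars exact 95% counting intervals, for section 34 of the 7 dpi heart against 28 sections of the 3 dpi heart: fabp3 stands apart at 17-fold and pdhb lies lowest at 0.33-fold.

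By its ratio to myl7, fabp3 differed most between the hearts. It held 25041 counts in the whole 7 dpi heart against 8239 in the 3 dpi heart, while the other 10 fat oxidation members measured in both had 2682 counts in kept sections at 7 dpi against 8782 at 3 dpi. In muscle-rich sections fabp3 had 16092 CPM at 7 dpi against 2266 CPM at 3 dpi (7.10-fold higher, 6.91 to 7.31). From 20000 CPM of contractile markers the level was 6.09-fold higher (5.93 to 6.26), a 2-fold excess shared by no other fat oxidation member and by 19.6% of genes. The ratio to myl7 was 17-fold higher (16.3 to 17.7) and the ratio to all contractile markers 9.87-fold higher (9.59 to 10.2). The difference was also present on the injury side, where fabp3 had 3712 CPM at 7 dpi against 665 CPM at 3 dpi (5.58-fold higher, 4.78 to 6.56), while 13 of 14 citrate cycle genes were 2-fold or more lower at 7 dpi there, against 37.5% of genes. As a ratio to myl7 every member measured in both hearts was 2-fold or more higher on the injury side at 7 dpi than at 3 dpi, against 99.2% of genes.

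A ratio within each section needs no scaling between sections. For every count of the 10 other fat oxidation members, 7 dpi sections had 2.62 to 16.8 counts of fabp3 (median 8.13), against 0.46 to 1.66 in 3 dpi sections (median 0.96). All 24 sections of the 7 dpi heart were above all 35 of the 3 dpi heart. Summed over kept sections the ratio was 9.02 at 7 dpi against 0.94 at 3 dpi, which is 9.64-fold (9.17 to 10.1). It was 10.9-fold on the injury side (8.46 to 14), 5.43-fold in the middle (4.37 to 6.79) and 9.84-fold on the remote side (9.32 to 10.4). On the injury side of the 7 dpi heart fabp3 thus reached 3124 to 4921 CPM where the contractile markers summed to 136 to 362 CPM. The 4 measured endothelial markers summed there to 0 to 228 CPM, leukocyte markers to 1972 to 4760 CPM and matrix markers to 5606 to 26163 CPM. Over the 24 sections at 7 dpi fabp3 had a rho of 0.38 with contractile and -0.72 with leukocyte markers, and which cells held the transcript was not tested.

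**Figure D4:**
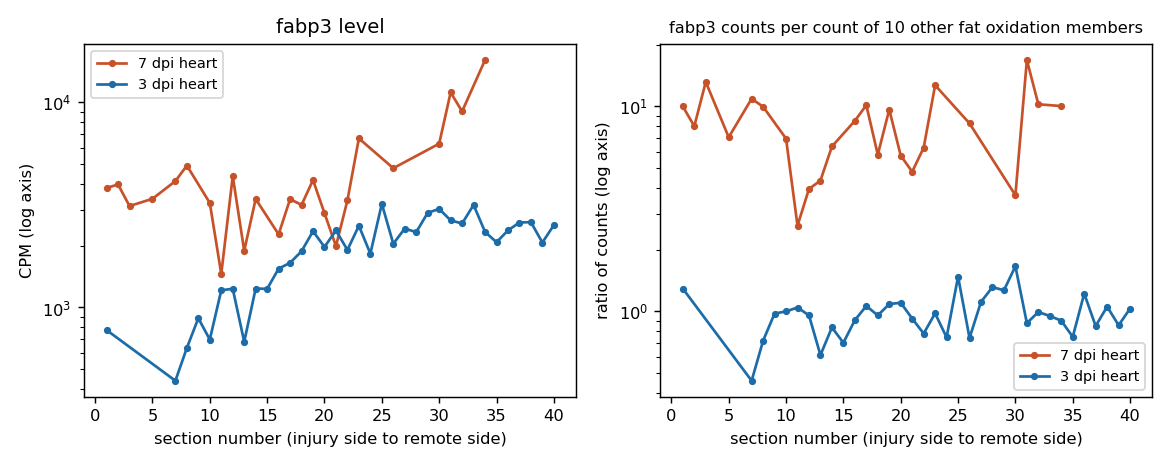
Level of fabp3 in CPM (left) and counts of fabp3 per count of the 10 other fat oxidation members measured in both hearts (right), both on log10 axes, by section number for the 7 dpi heart (red) and the 3 dpi heart (blue). Points are single kept sections: the levels of the hearts overlap in part, while the ratio lies between 2.62 and 16.8 at 7 dpi and between 0.46 and 1.66 at 3 dpi.

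The order of the members by their injury-side difference was partly shared by the hearts for the citrate cycle, with a Spearman rho of 0.49 over 14 genes, and not for fat oxidation, with a rho of -0.35 over 11 genes. These values describe 2 hearts, with no error of their own. For 3 members the difference had opposite signs: idh3g with -0.20 at 7 dpi and 0.38 at 3 dpi, slc25a20 with -2.27 at 7 dpi and 0.23 at 3 dpi, and suclg1 with -1.49 at 7 dpi and 0.078 at 3 dpi. Each of the 3 values at 3 dpi was below the median of 0.54 over all genes. With median-of-ratios scaling each was negative, at -0.46 for idh3g, -0.62 for slc25a20 and -0.78 for suclg1. That scaling moved the median of all genes at 3 dpi by -0.85, which is larger than each of the 3 values. The sign at 3 dpi thus depends on the scaling. The counting intervals of the 3 dpi folds, injury side over remote side, also span equal levels. They were 0.65 to 2.40 for idh3g, 0.69 to 1.90 for slc25a20 and 0.80 to 1.38 for suclg1. The change of sign is not read as a finding about these genes, and its cause was not tested. Each of the 3 values at 3 dpi was also negative once the gene's section of most counts in its domain of highest level was left out. For these 3 genes that domain was the injury side at 3 dpi. The change thus took counts from that side only and is no check of the sign.

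Other genes of the same pathways, from a list of 32 for the citrate cycle and pyruvate entry and 49 for fat oxidation, gave a like picture for the citrate cycle and less so for fat. At 7 dpi 7 of 13 measured citrate cycle and pyruvate IDs had an injury-side deficit of 2-fold or more, against 23.2% of all genes, and 0 an excess, against 9.09%. At 3 dpi 9 of 16 had a deficit, against 15.7% of all genes, and 1 an excess, against 34%. DLD, the lipoamide dehydrogenase shared by the pyruvate and oxoglutarate dehydrogenase complexes, was 2.48-fold lower on the injury side at 7 dpi (2.03 to 3.06) and 2.50-fold lower at 3 dpi (1.84 to 3.49). An ID named MPC2 (ENSDARG00000024478), of the mitochondrial pyruvate carrier, was 2.71-fold lower at 7 dpi (1.94 to 3.90) and 1.70-fold lower at 3 dpi (1.19 to 2.53). A second MPC2 ID (ENSDARG00000037679) had 1 injury-side count at 3 dpi and was 11.8-fold lower there (2.08 to 470). Of an ID named PDK2 (ENSDARG00000059054), for a kinase that switches pyruvate dehydrogenase off, the 7 dpi level was 9.87-fold lower on the injury side (4.96 to 23) and the 3 dpi level 1.88-fold lower (1.1 to 3.48). A second PDK2 ID (ENSDARG00000020876) was 7.80-fold lower at 7 dpi (2.09 to 65.5, 2 injury-side counts) and 5.75-fold lower at 3 dpi (2.62 to 15.8). The level of pdha1a, the alpha subunit partner of pdhb, was 1.83-fold lower at 7 dpi (1.21 to 2.89) and 2.62-fold lower at 3 dpi (1.93 to 3.65). Every gene named here from this list was lower on the injury side, which does not hold for every measured ID of the list.

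Among the other fat oxidation genes, 4 of 13 at 7 dpi had such a deficit and 1 an excess, near the 23.2% and 9.09% of all genes (median log2 difference -0.22). At 3 dpi 10 of 18 had a deficit, against 15.7% of all genes, and 1 an excess, against 34% (median -1.05). At 3 dpi ACAA2, a mitochondrial thiolase, was 2.14-fold lower on the injury side (1.49 to 3.18), and ECI1, an isomerase for unsaturated fatty acids, was 3.49-fold lower (1.82 to 7.71). The 7 dpi folds of these genes were 1.17 for ACAA2 (0.82 to 1.71) and 1.37 for ECI1 (0.99 to 1.96), lower on the injury side. The ketone body enzyme gene BDH1 had a 7 dpi level 1.44 times as high on the injury side as on the remote side, and 1595 counts in that heart against 126 at 3 dpi. The carnitine transferase gene cpt1ab was named after its values were seen. It was the 1 measured gene of this list with an injury-side excess of 2-fold or more at 7 dpi (3.13-fold). At 3 dpi it was 6.02-fold lower on the injury side (2.32 to 22.3). Of 11 listed regulators 3 were measured in each heart, with median log2 differences of -0.07 at 7 dpi and -0.25 at 3 dpi.

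The cytosolic malate dehydrogenase gene MDH1 (ENSDARG00000017772) carries a symbol that cannot be assigned to either mdh1aa or mdh1ab and stands outside the members. It had 134 CPM on the injury side, 158 CPM in the middle and 427 CPM on the remote side at 7 dpi (3.18-fold lower on the injury side, 2.47 to 4.15). At 3 dpi MDH1 had 261 CPM on the injury side, 532 CPM in the middle and 744 CPM on the remote side (2.85-fold lower, 2.25 to 3.68). Its ratio to myl7 in muscle-rich sections was 2.94-fold higher at 7 dpi than at 3 dpi (2.68 to 3.21), above that of mdh2, at 1.38-fold (1.27 to 1.51).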

How the data were processed

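The deposited tables, 1 per heart with a column per section, hold whole-number counts per Ensembl gene ID that the authors did not normalize, which was checked on every value. Their unit is entered as other, because the columns are named by bare section numbers that the automatic unit test could not read. Per the labels, libraries followed the CEL-seq protocol. Reads were aligned with BWA 0.6.2, per the submitters' processing notes; the build, gene models and use of molecular identifiers are not given in the sources used here. Gene rows number 16115 at 7 dpi and 16476 at 3 dpi, and no coordinates or sequences were used here. Columns of other samples numbered 0.

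A reference table named 13135 of the 7 dpi and 13441 of the 3 dpi IDs; its symbols were matched in any case, a capital symbol also without a final a or b. The members, gene lists and the rule for named genes were chosen with earlier results of these data known. Named are members with at least 300 counts in a heart, members of opposite sign to their class, the extremes of the ratio to myl7, the subunits of succinate dehydrogenase, the mdh1 genes, and up to 4 other pathway genes of at least 300 counts a class; other members are named to account for all of them. One gene that this rule would name is not reported here. Sections were kept from 20% of the 75th percentile of section totals (16192 counts at 7 dpi, 24571 at 3 dpi), which left out 14 sections at 7 dpi and 5 at 3 dpi. Spike-in rows were left out. Domains are a least-squares division into 3 runs, each with 4 or more sections, from standardized log2(CPM + 10) values of the 2000 genes highest in mean outside the members and lists. Counts were summed per domain and scaled to 1000000, with a pseudocount of 1 CPM for log2 differences, which understates the change of low genes; folds and intervals (Clopper-Pearson) come from the counts. Medians and counts of members rest on those log2 differences. No test was made with 1 heart a day, and reads may repeat molecules, so intervals cover counting error only. The scripts (Python 3.11.15, numpy 2.4.6, scipy 1.17.1, pandas 2.3.3, matplotlib 3.10.9) were tested on simulated data. Alternatives changed the section minimum, scaling, pseudocount, count minimum, domains, section 34, the IDs used, the muscle reference and the muscle-rich minimum.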

Additional observations from a re-analysis of the deposited data

Results flagged for a closer look

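The injury-side minus remote-side log2 difference had opposite signs in the hearts for 3 members: idh3g with -0.20 at 7 dpi and 0.38 at 3 dpi, slc25a20 with -2.27 at 7 dpi and 0.23 at 3 dpi, and suclg1 with -1.49 at 7 dpi and 0.078 at 3 dpi. The difference between the hearts was not tested.

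Sections left out for low totals also held member counts, above the limit that a count of 0 allows. The citrate cycle genes summed to 1407 CPM in the 14 left-out sections of the 7 dpi heart and to 1963 CPM in the 5 of the 3 dpi heart. Fat oxidation members without fabp3 summed to 600.5 CPM at 7 dpi and 825 CPM at 3 dpi. In these left-out sections fabp3 had 7645 CPM at 7 dpi against 384 CPM at 3 dpi. They are unlike tissues in the 2 hearts, with 3657 CPM of myl7 at 7 dpi against 939 CPM at 3 dpi. At 3 dpi they are sections 2 to 6. At 7 dpi they are sections 4, 6, 9, 15, 24, 25, 27, 28, 29, 33, 35, 36, 37 and 38.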

How the results depend on the processing

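Of the medians and counts by class recomputed under the alternatives, 164 stayed within the spread of their members (counts within 1.5 times) and 25 moved. None of the medians of the injury-side minus remote-side difference changed sign. A section minimum of 5% gave log2 ratio medians to myl7 of 2.81 and 2.87 (citrate cycle and fat oxidation) at 7 dpi and 3.00 and 2.82 at 3 dpi. A minimum of 40% gave 5.85 for the citrate cycle at 7 dpi and a 3 dpi count of 2 of 14 (11.3% of all genes). Median-of-ratios scaling gave 3 dpi medians of -1.88 and -2.42 and a citrate cycle count of 11 (30.4% of all genes). It moved the median of all genes at 3 dpi by -0.85. Domains of equal section number gave a 3 dpi citrate cycle count of 2 (5.76% of all genes) and ratio medians of 0.87 and 0.57. The first against the last of 4 domains gave a 7 dpi citrate cycle median of -2.06 and a fat oxidation count of 11 (22.3% of all genes). Without the section of most counts (34 at 7 dpi), the fat oxidation median at 7 dpi was -0.55. The count was 4, against 1134 of 4729 genes. Leaving out each gene's own section of most counts gave -0.55 and 4 too, against 1010 of 4729 genes. The citrate cycle ratio median was then 5.94. With the contractile sum in place of myl7, ratio medians were 4.67 and 5.13 at 7 dpi, 1.12 and 0.55 at 3 dpi, and -0.56 and 0.021 between the hearts in muscle-rich sections. The cause of these shifts was not tested. Of the values of single members, 637 stayed within their counting interval and 86 moved. The alternative count minimums and the use of 1 ID per member could not change the value of a single member. Their results are among the 637 and are no check. The use of 1 ID per member also left every class result as it was, and those results are among the 164. A minimum of 100 counts left both classes with the same members at 3 dpi. A minimum of 20 counts did so for the citrate cycle at 7 dpi and fat oxidation at 3 dpi. Those results are no check either. The higher muscle-rich minimum that was planned left no 7 dpi section, as did leaving out section 34, so neither gave a value. No paired analysis was possible because the 7 dpi and 3 dpi hearts are 1 sample each. With 5 injury-side myl7 counts at 7 dpi, depth limits every ratio there.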
